A study of Homo sapiens with 27 samples.

Results

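The comparison described here set PC-3 cells kept under chronic hypoxia against PC-3 control cells, over all genes of the array. It used 6 of the 27 arrays of the series, chosen by their titles: 3 arrays of chronic hypoxia and 3 control arrays. PC-3 is an established androgen-independent prostate cancer cell line, grown here as plain cultures without transgene or drug. Chronic hypoxia meant 72 h at 1% oxygen. In cycling hypoxia, used below for comparison only, PC-3 cells spent the 72 h in periods of 4 h or 12 h at 1% oxygen with returns to 21% oxygen between them (3 arrays). By the study's schedule their last period was 4 h at 21% oxygen. Control cells spent the 72 h at 21% oxygen. An ovarian cancer line (SK-OV-3) and a melanoma line (WM793B) went through the same conditions, with 3 arrays per condition. The study asked how tumor cells respond to prolonged and to intermittent lack of oxygen.

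Cells sense oxygen through prolyl hydroxylases, which use it to mark the alpha subunits of the hypoxia-inducible factors (HIF) for degradation. When oxygen is scarce the alpha subunits persist, pair with a beta subunit and bind short DNA motifs near genes of glucose uptake, glycolysis, blood vessel growth and matrix modification. Lack of oxygen also slows respiration, protein synthesis and DNA replication, and it activates stress factors such as ATF4.

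Chronic hypoxia changed a large part of the PC-3 transcriptome. The largest upward differences on the log2 scale were those of ANGPTL4, a secreted inhibitor of lipoprotein lipase, the immune receptor gene SLAMF9, the surface glycoprotein gene CDCP1 and the sodium channel subunit gene SCNN1G. Large falls included PHACTR3, a regulator of protein phosphatase 1 and actin, the antisense RNA SSTR5-AS1 and GUCY1A1, a subunit of soluble guanylate cyclase. HIF targets, ATF4 targets and genes of glycolysis, cholesterol synthesis and NF-kB-type cytokines mostly rose, and genes of DNA replication, ribosome biogenesis, the respiratory chain and the interferon response fell.

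Of 19791 probe sets that passed the filter for variation over the series, 4445 (22.5%) changed, with an adjusted p under 0.05 in limma's moderated test and a difference of at least 2-fold. Among them 1914 (9.67%) were higher and 2531 (12.8%) lower under chronic hypoxia than in control cells, and they covered 2804 named genes. Differences of at least 4-fold numbered 378 upward and 364 downward, and those of at least 16-fold 27 upward and 2 downward. The 3 chronic hypoxia arrays did not overlap with the 3 control arrays in 4436 of the 4445 changed probe sets, while groups that did not overlap made up 65.4% of all probe sets tested. The higher share of the changed probe sets was 43.1% with the values as deposited, 49.8% after a further quantile normalization and 55.7% with each array centred on its median, so the excess of falls depended on the scale. The median difference over all probe sets tested was -0.03, -0.01 and 0.12 (log2) on these scales, in the same order.

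**Figure D1:**
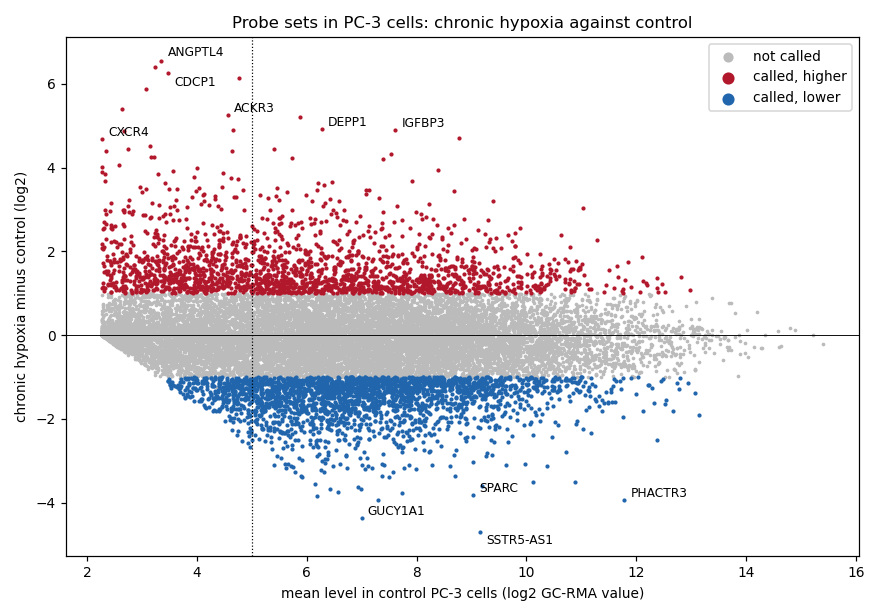
Difference between chronic hypoxia and control (log2, y axis) against the mean level in control cells (log2 GC-RMA value, x axis), with 1 point per filtered probe set, red for higher and blue for lower changed probe sets and a dotted line at the dim level of 5. The rises of ANGPTL4, CDCP1 and CXCR4 start below the dim level, while PHACTR3 fell by 3.93 from one of the brighter control levels.

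The arrays of a group were close to each other. The lowest correlation over all probe sets was 0.996 among the chronic hypoxia arrays and 0.997 among the control arrays, against 0.975 to 0.977 between the groups. A log2 value of 5 was set here as the dim level, and 66.6% to 67.8% of the probe sets of an array of either group lay at or below it. Of the changed probe sets, 683 of the rises started from a control group at or below the dim level on all its arrays, and 938 of the falls ended in such a chronic hypoxia group; their fold changes are given as lower bounds against the dim level, and their log2 differences as measured. These bounds depend on the level chosen, and with a linear value of 5 (log2 2.32), close to the lowest deposited value, 13 rises and 4 falls would have such a group. The epithelial markers KRT8, KRT18, KRT19, EPCAM, HOXB13 and CD44 were all above the dim level in both groups, and 4 of the 6 fell and 1 rose (median -0.43). The 5 leukocyte and erythroid markers with a probe set were at or below the dim level on all 6 arrays, as were 5 of 6 melanocyte markers, and TMPRSS2 was the only androgen-dependent prostate marker of 4 above the dim level. The prostate homeobox gene HOXB13 was lower under chronic hypoxia, at 8.74 to 8.85 against 10.80 to 11.28 in control cells (log2 difference -2.24, SE 0.13). The hyaluronan receptor gene CD44 was lower too, at 10.00 to 10.05 against 11.11 to 11.36. The keratin gene KRT19 was higher, at 12.85 to 12.91 against 12.32 to 12.43. TMPRSS2 was also higher, at 8.14 to 8.35 against 7.26 to 7.43. In such cultures fewer cells of a kind and less RNA per cell cannot be told apart. The labels call the arrays of a group biological replicas. The p values set the difference between group means against the spread within groups. This spread was estimated jointly over the 9 PC-3 arrays with the cycling hypoxia group and moderated across probe sets.

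Among the largest rises, ANGPTL4 read 9.92, 9.86 and 9.91 (log2) on the chronic hypoxia arrays, against 3.54, 3.82 and 2.68 on the control arrays. The difference of 6.55 (SE 0.30, adjusted p = 3.00e-06) amounted to at least 29.8-fold, and the other probe set of the gene rose by 6.13. SLAMF9 read 9.55, 9.59 and 9.80 under chronic hypoxia, against 2.63, 3.35 and 3.73 in control cells (6.41, SE 0.25, at least 25.0-fold). Both genes were bright on every chronic hypoxia array and below the dim level on every control array. CDCP1, whose protein is a substrate of SRC kinases, read 9.63, 9.67 and 9.94 under chronic hypoxia, against 3.19, 4.10 and 3.14 in control cells (6.27, SE 0.26, at least 26.8-fold). Its other probe sets moved far less, by 0.46 and 1.17, so the size of the CDCP1 change differed between its probe sets. SCNN1G, the gamma subunit of the epithelial sodium channel, read 8.97, 8.88 and 9.01 against 2.61, 3.37 and 3.24 (5.88, SE 0.21, at least 15.5-fold). TCP11L2 rose at least 8.17-fold.

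The remaining large rises included receptors and secreted proteins. ACKR3, an atypical receptor for the chemokine CXCL12, read 9.81, 9.96 and 9.68 under chronic hypoxia, against 4.99, 4.56 and 4.13 in control cells (5.25, SE 0.23, at least 28.2-fold). CXCR4, the signaling receptor for the same chemokine, read 6.98, 7.12 and 6.77 under chronic hypoxia and stood at the lowest deposited value, 2.28, on all 3 control arrays (at least 3.88-fold, adjusted p = 2.30e-06). CXCL12 itself was below the dim level, with means of 2.84 under chronic hypoxia and 2.28 in control cells. DEPP1, a gene induced by FOXO factors, read 11.21, 11.20 and 11.18 under chronic hypoxia against 6.24, 6.40 and 6.18 in control cells, a 30.3-fold rise measured above the dim level in both groups (4.92, SE 0.08, adjusted p = 1.87e-07). IGFBP3, which binds insulin-like growth factors in the extracellular fluid, read 12.48, 12.54 and 12.52 against 7.55, 7.81 and 7.47 (29.9-fold, SE of the log2 difference 0.10), and its other probe set rose by 4.70. The groups were apart by many times the spread between arrays in both genes. PTGS2, the inducible cyclooxygenase, read 7.21, 7.18 and 7.20 under chronic hypoxia against 2.62, 2.61 and 3.01 in control cells (at least 4.57-fold), and KISS1R, the kisspeptin receptor, rose at least 3.37-fold. FBN2, which encodes the microfibril protein fibrillin 2, rose at least 23.7-fold on this probe set (9.64, 9.58 and 9.49 against 4.83, 4.22 and 4.93), whereas the brighter probe set of the gene fell by 0.37.

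Among the largest falls, SSTR5-AS1 read 5.27, 4.15 and 3.91 under chronic hypoxia, against 9.27, 8.98 and 9.19 in control cells (-4.70, SE 0.38, adjusted p = 3.87e-05), with 2 of its 3 chronic hypoxia arrays below the dim level. GUCY1A1 read 2.69, 2.71 and 2.52 against 6.90, 6.97 and 7.13, at least 4.00-fold lower, with its other probe set at -3.38. PHACTR3 read 7.95, 7.71 and 7.90 against 11.81, 11.74 and 11.80. PHACTR3 was 15.2-fold lower, with both groups above the dim level (-3.93, SE 0.06, adjusted p = 1.87e-07). The matricellular glycoprotein gene SPARC read 5.23, 4.93 and 5.45 under chronic hypoxia against 8.59, 9.61 and 8.86 in control cells (14.1-fold lower, and its other probe set fell by 2.96). The iron exporter gene SLC40A1 (ferroportin) read 2.67, 2.78 and 3.03 against 6.50, 6.75 and 6.44, at least 2.95-fold lower. Of the other genes with large falls, the Wnt receptor ligand gene NDP was at least 2.28-fold lower and RNFT2 at least 3.80-fold. CADPS2, a factor of vesicle exocytosis, was at least 6.65-fold lower. CYRIB, an inhibitor of RAC1 signaling, was at least 4.94-fold lower on 1 probe set, while its other probe set fell by only 0.87. RSAD2, SP100 and CMPK2, all induced by interferons, are described with that group.

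**Figure D2:**
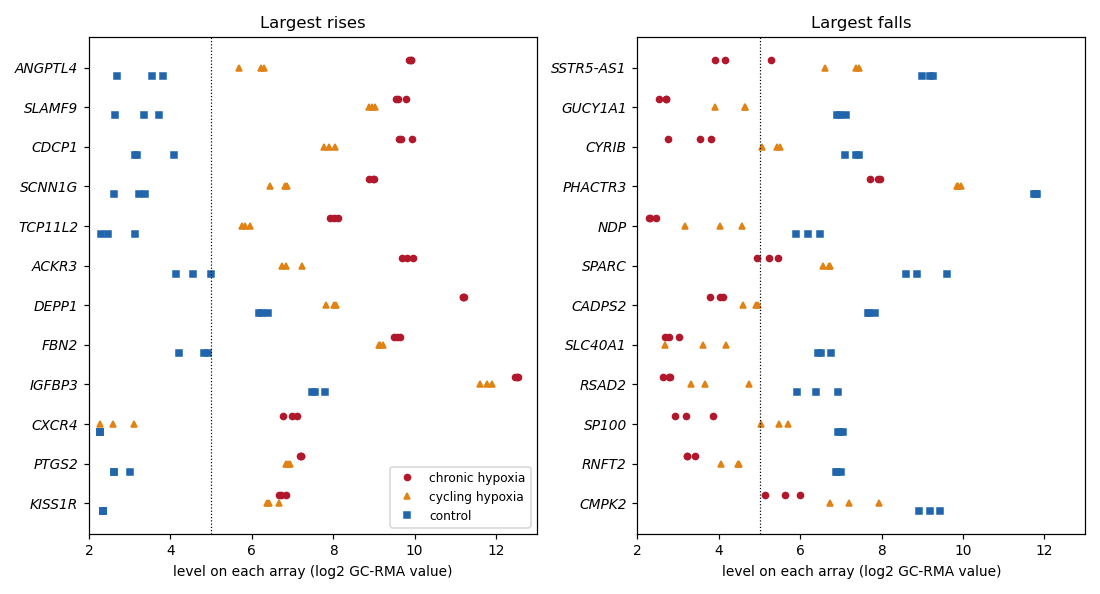
Level on each array (log2 GC-RMA value, x axis) of the 12 genes with the largest rises (left panel) and the 12 with the largest falls (right panel), with 1 symbol per array for chronic hypoxia, cycling hypoxia and control, and a dotted line at the dim level of 5. Chronic hypoxia and control arrays are apart in every gene, and the cycling hypoxia arrays of ANGPTL4 sit between them at 5.68 to 6.30.

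Lists of genes by function were read through the brightest filtered probe set of each gene. Over all 10021 named genes read in that way, 2515 (25.1%) rose, 3885 (38.8%) fell and 3621 did not pass the test, with a median difference of -0.08 (log2). The counts of each list are given against this background.

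All 27 tested HIF targets rose and none fell, with a median of 2.11, and 25 of them rose at least 2-fold. Adrenomedullin, ADM, a vasodilator peptide, read 11.83, 11.86 and 11.92 under chronic hypoxia against 7.38, 7.74 and 7.51 in control cells, 20.1-fold higher (4.33, SE 0.11, adjusted p = 4.89e-07). DDIT4, an inhibitor of mTOR complex 1, read 12.35, 12.38 and 12.29 against 8.50, 8.02 and 8.66, 15.4-fold higher (3.95, SE 0.16). ANKRD37 rose by 3.46, the lipid droplet protein gene HILPDA by 3.45 and NDRG1, a stress-induced gene linked to differentiation, by 3.04. VEGFA, the main growth factor of blood vessels, read 11.77, 11.80 and 11.73 against 9.47, 9.26 and 9.59 (5.01-fold), and its 3 other probe sets rose by 2.7 to 3.66. The smallest rise of the list was that of the HIF prolyl hydroxylase gene EGLN1, at 0.52 on its brightest probe set. Its 2 other filtered probe sets rose by 1.06 and 1.1. The hydroxylase gene EGLN3 was below the dim level on its probe set, with means of 2.79 under chronic hypoxia and 2.59 in control cells.

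The genes of the oxygen sensor moved in different directions. HIF1A, the alpha subunit gene of HIF-1, read 11.90, 11.74 and 11.73 under chronic hypoxia against 12.92, 12.91 and 12.97 in control cells, 2.21-fold lower (-1.15, SE 0.06, adjusted p = 4.43e-06). EPAS1, the alpha subunit gene of HIF-2, read 9.95, 10.05 and 10.04 against 8.81, 8.91 and 8.84, 2.24-fold higher (1.16, SE 0.05, adjusted p = 2.90e-06). The arrays of both groups were apart for both subunits. HIF1AN, the gene of the asparaginyl hydroxylase that inhibits HIF, did not pass the variation filter; in the fit without it the mean was 5.94 under chronic hypoxia and 6.85 in control cells (-0.91, adjusted p = 0.000918). Among histone demethylases that need oxygen, 7 of 13 rose and 2 fell. KDM7A rose at least 4.06-fold, KDM3A by 1.87, JMJD6, a related hydroxylase gene, by 1.46 and KDM4B by 1.05.

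The promoters of the HIF targets with the largest rises are printed to show where the core HIF motif stands. They come from RefSeq on GRCh38.p14 and span 300 bases around the start site, and capitals mark ACGTG or GCGTG on either strand. The 3 genes lie on the plus strand, ANGPTL4 at chr19:8363905-8364204, ADM at chr11:10304823-10305122 and DDIT4 at chr10:72273674-72273973.
ANGPTL4: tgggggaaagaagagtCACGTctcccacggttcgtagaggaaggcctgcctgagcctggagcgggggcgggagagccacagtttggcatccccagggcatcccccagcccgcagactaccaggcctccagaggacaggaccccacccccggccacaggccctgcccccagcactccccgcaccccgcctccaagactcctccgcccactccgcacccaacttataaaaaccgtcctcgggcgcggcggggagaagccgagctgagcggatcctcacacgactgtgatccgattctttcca
ADM: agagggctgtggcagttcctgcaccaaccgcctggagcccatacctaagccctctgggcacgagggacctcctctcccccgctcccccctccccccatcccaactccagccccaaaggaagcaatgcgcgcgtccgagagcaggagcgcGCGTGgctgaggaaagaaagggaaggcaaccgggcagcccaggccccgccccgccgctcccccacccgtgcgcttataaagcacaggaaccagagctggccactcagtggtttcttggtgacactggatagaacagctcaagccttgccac
DDIT4: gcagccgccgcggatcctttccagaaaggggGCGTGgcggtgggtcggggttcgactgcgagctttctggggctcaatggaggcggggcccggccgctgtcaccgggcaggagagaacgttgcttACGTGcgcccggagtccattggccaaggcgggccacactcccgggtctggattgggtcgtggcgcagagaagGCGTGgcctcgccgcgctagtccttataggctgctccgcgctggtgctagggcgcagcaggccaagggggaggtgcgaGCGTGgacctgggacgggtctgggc
ANGPTL4 and ADM had 1 match each and DDIT4 had 4. Such letters are common, being found in 48.4% of 27305 promoters of this length and in 62.8% of the promoters of tested genes. Among HIF targets with a promoter in the table, 19 of 22 (86.4%) held a match. So did 27 of 36 DNA replication genes (75.0%), 14 of 20 glycolysis genes (70.0%) and 12 of 31 interferon-stimulated genes (38.7%). A match describes the sequence and is not a measured binding site.

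Most transcripts of glycolysis genes rose, and most of those of the respiratory chain fell. Of 21 tested genes of glycolysis and glucose uptake 17 rose and 2 fell, with a median of 1.00. The neuronal enolase gene ENO2 read 10.96, 10.93 and 11.11 under chronic hypoxia against 8.13, 8.34 and 8.05 in control cells, 7.09-fold higher. PFKFB3, whose product makes the activator of phosphofructokinase, rose by 2.71, the aldolase gene ALDOC by 2.41 and the glucose transporter gene SLC2A1 by 2.47 (5.53-fold). PDK1, the kinase that closes pyruvate dehydrogenase, read 10.64, 10.47 and 10.49 against 8.25, 8.71 and 8.48. On their brightest probe sets abundant enzymes moved less, with 1.24 for ALDOA and 0.76 for PGK1. Their other filtered probe sets rose more, by 1.3 to 1.82 for ALDOA and by 1.07 to 3.27 for PGK1. In the fit without the filter GAPDH rose by 0.47 and LDHA by 0.25. The muscle phosphofructokinase gene PFKM fell by 1.13. The hexokinase gene HK2 rose by 1.78 on its brightest probe set, but its other probe sets differed by -1.54 and -1.0.

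Of 25 tested subunits of the respiratory chain and ATP synthase 22 fell and none rose, with a median of -0.57. The ATP synthase subunit gene ATP5MC3 read 5.52, 5.33 and 5.38 under chronic hypoxia against 7.03, 7.45 and 7.28 in control cells (-1.84, SE 0.10). ATP5MC1 fell by 1.18 and the complex I subunit gene NDUFS1 by 0.95. UQCRC2 differed by 0.72 and did not pass the test (adjusted p = 0.13). In the citric acid cycle 7 of 10 genes fell and 1 rose, with IDH3A at -1.34, OGDH at -1.09 and SDHC at -0.71. The 22 falls of respiratory chain genes ran from -0.20 for COX6C to -1.84 for ATP5MC3, and 2 of them reached 2-fold.

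Genes of DNA replication had the lowest median of the cell cycle lists. Of 42 tested genes 40 fell and none rose, 29 of them at least 2-fold, with a median of -1.23. The initiation factor gene MCM10 read 2.57, 2.30 and 2.90 under chronic hypoxia against 5.80, 5.55 and 5.66 in control cells, at least 1.59-fold lower. CDC7, the kinase that fires replication origins, read 4.09, 4.09 and 4.43 against 6.43, 6.65 and 6.59 (-2.35, at least 2.94-fold lower, adjusted p = 3.00e-06). The polymerase alpha subunit gene POLA1 read 4.96, 5.19 and 5.17 against 7.42, 7.32 and 7.29 (-2.24, SE 0.11), and the primase gene PRIM1 fell by 2.23. These replication genes were lower on every chronic hypoxia array than on any control array. PCNA, the sliding clamp of the polymerases, read 9.91, 9.99 and 10.02 against 11.64, 11.54 and 11.50, 3.01-fold lower, and the helicase gene MCM2 fell by 1.60. DBF4, the activator of CDC7, differed by -0.10 with overlapping groups (adjusted p = 0.243). RFC5, a clamp loader subunit, differed by 0.00 on its brightest probe set and by -1.03 and -0.93 on the others.

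The promoters of CDC7 and POLA1 are printed with E2F motifs in capitals, on either strand. The letters searched were TTGGCGC and the variants TTCGCGC with TTCCCGC as well as TTGCCGC, chosen because E2F factors are known to drive replication genes. Both promoters are taken from RefSeq on GRCh38.p14, plus strand, at chr1:91500601-91500900 for CDC7 and chrX:24693668-24693967 for POLA1.
CDC7: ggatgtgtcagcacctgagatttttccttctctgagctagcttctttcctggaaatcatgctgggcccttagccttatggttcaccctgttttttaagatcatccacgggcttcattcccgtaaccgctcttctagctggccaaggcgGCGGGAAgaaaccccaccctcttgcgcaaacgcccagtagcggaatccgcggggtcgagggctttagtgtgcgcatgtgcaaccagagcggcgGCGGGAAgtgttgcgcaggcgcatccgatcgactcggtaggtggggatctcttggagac
POLA1: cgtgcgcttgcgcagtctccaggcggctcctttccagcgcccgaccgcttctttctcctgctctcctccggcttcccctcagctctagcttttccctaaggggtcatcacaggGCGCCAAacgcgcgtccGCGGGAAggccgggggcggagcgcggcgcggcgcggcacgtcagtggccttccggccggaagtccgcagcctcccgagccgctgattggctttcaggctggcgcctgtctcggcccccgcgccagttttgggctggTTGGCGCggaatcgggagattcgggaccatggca
CDC7 had 2 matches and POLA1 had 3, while the promoter of MCM10, the replication gene with the largest log2 fall, held none and is not printed. A match was found in 27 of 36 promoters of tested replication genes (75.0%), against 13 of 34 for mitosis genes (38.2%), 5 of 21 for ribosome biogenesis genes (23.8%), 20.7% of the promoters of tested genes and 13.1% of all promoters of this length.

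The G1 regulators moved both ways, with 6 of 19 rising and 9 falling. Cyclin E2, CCNE2, read 5.19, 5.30 and 5.66 under chronic hypoxia against 7.81, 7.80 and 8.04 in control cells, 5.66-fold lower. The pocket protein gene RBL1 (p107) was at least 1.12-fold lower and the phosphatase gene CDC25A at least 1.30-fold lower. The inhibitor of cyclin-dependent kinases CDKN1A (p21) read 9.14, 9.19 and 9.07 against 6.68, 6.82 and 6.67, 5.32-fold higher, and CDKN1B (p27) rose by 1.32. E2F1 did not pass the variation filter and differed by -0.70 in the fit without it (adjusted p = 0.0161).

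Genes of mitosis and the spindle moved little. Of 39 tested genes 16 fell, 6 rose and 17 did not pass the test, with a median of -0.10, and with median-centred arrays 11 rose and 8 fell with a median of 0.05, so no direction held for this group. The kinetochore gene SPC25 fell by 1.16 and the condensin gene SMC4 by 1.00, the only mitosis genes with 2-fold changes. CDK1, the mitotic kinase, read 11.15, 11.16 and 11.08 under chronic hypoxia against 11.12, 11.05 and 11.15 in control cells, and TOP2A differed by 0.11, with overlapping groups in both. The proliferation marker MKI67 differed by 0.31 on its brightest probe set and by -1.82 to -0.17 on the other 3.

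Repair, nucleotide and ribosome genes fell with replication. Of 23 tested genes of DNA repair and checkpoints 20 fell and none rose (median -1.04). The checkpoint kinase gene ATR read 6.17, 6.16 and 6.01 under chronic hypoxia against 8.13, 8.27 and 8.0 in control cells, FANCM was at least 2.59-fold lower and RAD51C, a recombination gene, fell by 1.93. Of 18 tested genes of nucleotide synthesis 16 fell and 1 rose (median -0.88), led by DCTPP1, a nucleotide pyrophosphatase, at -2.09 and PFAS, an enzyme of purine synthesis, at -2.05. The folate enzyme gene MTHFD1 fell by 1.69, but its other probe set rose by 1.36. Of 24 tested genes of ribosome biogenesis 23 fell and none rose (median -1.02). RRS1 read 6.82, 7.14 and 7.43 against 9.33, 9.34 and 9.28 (-2.18, SE 0.14), and UTP20, a processome component, fell by 1.94. Among MYC and its partners 4 of 9 rose and 3 fell. MXD1, a MYC antagonist, read 9.28, 9.44 and 9.19 under chronic hypoxia against 6.16, 6.08 and 6.07, 9.21-fold higher, MNT, another antagonist, rose by 1.27 and MYC itself by 0.59.

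Targets of ATF4, the transcription factor of the integrated stress response, rose. Of 26 tested genes 23 rose and 1 fell, 18 of the rises at least 2-fold, with a median of 1.38. ATF4 itself read 12.01, 12.08 and 12.06 under chronic hypoxia against 10.83, 10.50 and 10.78 in control cells, 2.55-fold higher (adjusted p = 1.04e-05). DDIT3 (CHOP), a pro-apoptotic factor, read 10.97, 11.06 and 10.92 against 8.17, 7.93 and 8.15, 7.48-fold higher. The lipoprotein receptor gene VLDLR rose at least 3.07-fold and the stress factor gene ATF3 by 2.89. Control replicate 2 read lowest of the control arrays for ATF4, DDIT3 and ATF3 (5.67 for ATF3, against 6.82 on both others). The cystine transporter gene SLC7A11 fell by 1.13. Of 12 tested tRNA synthetase genes 7 rose and 4 fell, with CARS1 at 1.31 and FARSB at -1.13.

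Genes of the endoplasmic reticulum and the unfolded protein response rose, 15 of 20 with 1 falling (median 0.62). The stress sensor gene ERN1 (IRE1) read 9.90, 9.97 and 9.93 under chronic hypoxia against 7.35, 7.29 and 7.46 in control cells (2.57, SE 0.09). HERPUD1, a component of protein degradation at this membrane, rose by 1.71, the cochaperone gene DNAJB9 by 1.45 and the chaperone gene HSPA5 (BiP) by 0.89. Of 12 tested cytosolic heat shock genes 6 fell and 3 rose (median -0.52), beside 38.8% and 25.1% of all genes, with HSPE1 at -1.28 and BAG3 at -1.22.

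Interferon-stimulated genes had the lowest median of all lists, -1.95. Of 39 tested genes 35 fell and 1 rose, and 31 fell at least 2-fold. IFIT1, which binds foreign RNA, read 7.52, 6.88 and 7.74 under chronic hypoxia against 10.91, 11.00 and 10.73 in control cells, 11.3-fold lower (-3.50, SE 0.28, adjusted p = 3.32e-05). MX2, an antiviral GTPase gene, was at least 1.86-fold lower and BST2 (tetherin) at least 4.18-fold lower. The ubiquitin-like modifier gene ISG15 read 11.39, 10.82 and 11.54 against 13.14, 13.17 and 13.14, 3.73-fold lower. Chronic hypoxia replicate 2 was the lowest of its group for IFIT1, ISG15, BST2 and IFI35, and IFI35 read 2.76 there against 5.09 and 4.46 on the other chronic hypoxia arrays. With each array left out in turn, 34 or 35 genes of the list fell. Among the largest falls of the whole comparison, RSAD2 (viperin) read 2.81, 2.62 and 2.77 against 6.39, 6.92 and 5.93, at least 2.67-fold lower. CMPK2, a mitochondrial nucleotide kinase, read 5.99, 5.13 and 5.63 against 9.20, 9.43 and 8.93, 12.2-fold lower. SP100, a nuclear body protein gene, was at least 3.97-fold lower on one probe set, while another rose by 0.59.

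ISG20, an exonuclease gene, was the only interferon-stimulated gene that rose, at 10.05, 10.05 and 10.19 under chronic hypoxia against 7.76, 7.80 and 7.66 in control cells (2.36, SE 0.05), and both its probe sets did so. The factors of the interferon pathway moved less than their targets, with IRF7 at -0.60 and IRF9 at -0.40, and IRF1 differed by 0.46 without passing the test (adjusted p = 0.18). Of 15 tested genes of MHC class I presentation 7 rose and 4 fell. The immunoproteasome genes PSMB8 and PSMB9 and the transporter gene TAP1 fell, PSMB8 by 1.62, PSMB9 at least 1.65-fold and TAP1 by 0.49, while HLA-B rose by 0.73; probe sets of such closely related HLA genes may not tell them apart. The leukocyte markers PTPRC, CD3E and CD14 averaged 2.28 in both groups, the lowest deposited value.

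Chemokine, cytokine and NF-kB genes rose. Of 21 tested chemokines and cytokines 14 rose and 2 fell (median 1.32), and of 13 genes of NF-kB subunits and feedback 11 rose and 2 fell (median 1.00). CXCL8, the neutrophil chemokine interleukin 8, read 12.56, 12.44 and 12.38 under chronic hypoxia against 9.90, 9.68 and 10.09 in control cells, 5.94-fold higher (2.57, SE 0.11, adjusted p = 2.16e-06). CXCL3 rose by 2.57 and the cytokine gene IL32 by 2.53. CXCL2 read 9.40, 9.21 and 9.22 against 7.55, 7.0 and 7.60, 3.73-fold higher, and its other probe set differed by 0.41. IL7, a growth factor of lymphocytes, ran against the list, at 2.99, 3.11 and 3.00 under chronic hypoxia against 6.28, 6.47 and 6.17 in control cells, at least 2.47-fold lower. TNFAIP3 (A20), a feedback inhibitor of NF-kB, read 8.33, 8.37 and 8.23 against 5.6, 5.55 and 5.94 (2.61, SE 0.11), the adhesion molecule gene ICAM1 rose by 1.71 and the inhibitor gene NFKBIA by 1.37. The subunit gene NFKB1 fell by 0.83.

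Early response factors rose, 17 of 22 with 2 falling (median 0.95). The transcription factor gene KLF7 read 8.06, 7.97 and 7.95 under chronic hypoxia against 4.00, 3.72 and 4.26 in control cells, at least 7.96-fold higher, though its other 4 probe sets ranged from 0.20 to 3.79. DUSP1, a phosphatase of MAP kinases, read 11.73, 11.57 and 11.53 against 7.69, 8.0 and 8.06 (3.69, SE 0.12). FOS varied within both groups, at 7.72, 6.86 and 6.43 against 4.86, 5.91 and 4.61 (1.88, SE 0.42, adjusted p = 0.00621), and EGR1 overlapped between them (-0.01, SE 0.51). In the EGF receptor family 4 of 11 genes rose and 2 fell. ERRFI1, an inhibitor of the receptor, rose by 1.87, EGFR by 1.04 and the ligand gene HBEGF by 1.25, while the ligand gene BTC fell by 1.09.

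Of the genes followed by qRT-PCR, 5 had a named probe set. CXCL8, CXCL2 and HBEGF rose at least 2-fold, PLAU (urokinase) rose by 0.46 and the ephrin receptor gene EPHA2 fell by 0.28, at 9.94, 9.94 and 10.07 under chronic hypoxia against 10.32, 10.15 and 10.31 in control cells. The fall of EPHA2 did not pass the test with median-centred arrays (-0.12, adjusted p = 0.17). Of the genes used as internal references for qRT-PCR in PC-3 cells, EIF5 differed by -0.05 (adjusted p = 0.391), and HADHA, an enzyme of fatty acid oxidation, read 9.76, 9.69 and 9.61 against 10.12, 10.21 and 10.22 (-0.50, adjusted p = 0.000445 in the fit without the filter).

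Secreted vascular factors and their receptors rose, 13 of 21 with 2 falling (median 1.60), beside ANGPTL4, ADM and VEGFA of the HIF list. FGF1, an acidic fibroblast growth factor, read 6.63, 6.69 and 6.55 under chronic hypoxia against 2.37, 2.96 and 2.38 in control cells, at least 3.08-fold higher. PDGFA rose by 2.40, and the VEGF co-receptor gene NRP1 fell by 1.80. The endothelial marker PECAM1 was higher as well, at 6.38 to 6.79 against 5.17 to 5.97, while VWF and CDH5 were at or below the dim level on all 6 arrays; the summed level of these 3 markers was 6.54 to 6.91 against 5.52 to 6.18, and its part in the vascular group was not tested.

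In the extracellular matrix the modifying enzymes rose and the structural genes were mixed. Of 13 collagen hydroxylases and lysyl oxidases 10 rose, all at least 2-fold, and 1 fell. The prolyl hydroxylase gene P4HA2 read 11.15, 11.18 and 11.04 under chronic hypoxia against 8.48, 8.62 and 8.60 in control cells (2.56, SE 0.05), and the collagen crosslinking genes LOXL2 and LOX rose, by 2.14 and at least 1.58-fold. The lysyl hydroxylase gene PLOD2 rose by 1.66 and LOXL1 fell by 0.38. Of 26 collagens and matrix proteins 10 rose and 9 fell, with FBN1 (fibrillin 1) at 2.78, COL6A2 at 1.56, COL1A1 at 1.07 and SPARC at -3.81. Among integrins and laminins 13 of 17 rose and 4 fell. ITGA5, the fibronectin receptor subunit, read 10.38, 10.40 and 10.60 against 7.03, 7.23 and 6.99, 10.4-fold higher, and LAMB3 and ITGB4, both parts of epithelial anchoring, rose by 2.94 and 2.78.

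Proteases and epithelial or mesenchymal markers moved both ways, with more rises than falls. In the urokinase system and among matrix proteases 9 of 17 rose and 2 fell, with the urokinase receptor gene PLAUR at 1.25, ADAMTS1 at 1.57 and the collagenase gene MMP1 at -1.0. Of 26 epithelial and mesenchymal markers 17 rose and 5 fell. The mesenchymal gene VIM rose at least 1.99-fold and SNAI2, ZEB1 and CDH2 by 1.30, 1.07 and 0.64, and the epithelial genes GRHL2 and CLDN1 fell, at least 2.28-fold and by 1.62. CDH1 (E-cadherin) read 9.87, 9.71 and 9.62 under chronic hypoxia against 9.50, 10.00 and 9.77 in control cells, with overlapping groups, and the desmosome gene PKP2 rose by 1.51.

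Growth factor pathways of the TGF-beta and IGF type were mixed. Of 20 genes of TGF-beta and activin signaling 9 rose and 4 fell, with ID1 at 1.95, TGFB2 at 1.17, TGFB1 at 1.03 and the inhibitor gene SMAD6 at -1.24. Of 11 IGF-binding and CCN proteins 5 rose and 2 fell. IGFBP6 rose by 1.72 beside IGFBP3, CCN1 rose by 1.04 and CCN2 fell by 1.20. In prostaglandin metabolism PTGS2 was the only gene of 9 that rose, and 6 fell. HPGD, the enzyme that degrades prostaglandins, read 9.99, 9.95 and 9.71 against 12.30, 12.64 and 12.20, 5.64-fold lower, and the receptor gene PTGER4 fell by 1.20.

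Cholesterol genes rose while fatty acid genes were mixed. Of 18 tested genes of cholesterol synthesis and uptake 15 rose and 1 fell (median 0.68). HMGCS1, which starts the pathway, read 9.80, 9.67 and 9.54 under chronic hypoxia against 7.63, 7.77 and 7.82 in control cells, 3.82-fold higher. The sterol carrier gene STARD4 rose by 2.39, and SQLE and MSMO1, enzymes that use oxygen, rose by 1.57 each. The sterol reductase gene TM7SF2 fell by 1.5. In fatty acid synthesis 3 of 11 rose and 4 fell, with ACSS2 at 1.38 and the elongase gene ELOVL6 at -1.64. Of 16 genes of lipid droplets and fatty acid binding 8 rose and 4 fell, with HILPDA and the lipase inhibitor gene G0S2 at 3.45 and 1.54 and the binding proteins FABP4 and FABP5 at -1.93 and -1.37.

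The remaining lists were smaller or moved both ways. Of 19 genes of mitophagy and autophagy 12 rose and 5 fell, with the initiating kinase gene ULK1 at 1.87 and the mitophagy receptors BNIP3L and BNIP3 at 1.61 and 1.56. Of 8 metallothionein genes and regulators 6 rose and 1 fell, led by MT1X at 1.65; the copies of this family are nearly alike and their probe sets may not tell them apart. Of 21 NRF2 targets 10 rose and 6 fell, with heme oxygenase HMOX1 at least 2.57-fold higher and NQO1 at -0.51. Of 16 p53 targets and death genes 7 rose and 5 fell, with TP53I3 at -1.78 and BAX at -1.22; PC-3 cells are known to lack p53. In iron handling, where 5 of 11 rose and 3 fell, SLC40A1 and the ferritin receptor gene NCOA4 (-1.07) fell and the ferritin gene FTL rose by 1.02. Of 14 clock genes 6 rose and 5 fell, with NFIL3 at 2.73, NPAS2 at -1.21 and CLOCK at -0.91. Of 6 TXNIP and arrestin domain genes 3 rose and 1 fell, with ARRDC3 at 2.83 and TXNIP at 0.98. Of 8 genes of pH control 3 rose and 2 fell, with CA12 at 1.34 and the bicarbonate transporter gene SLC4A4 at least 1.45-fold lower.

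**Figure D3:**
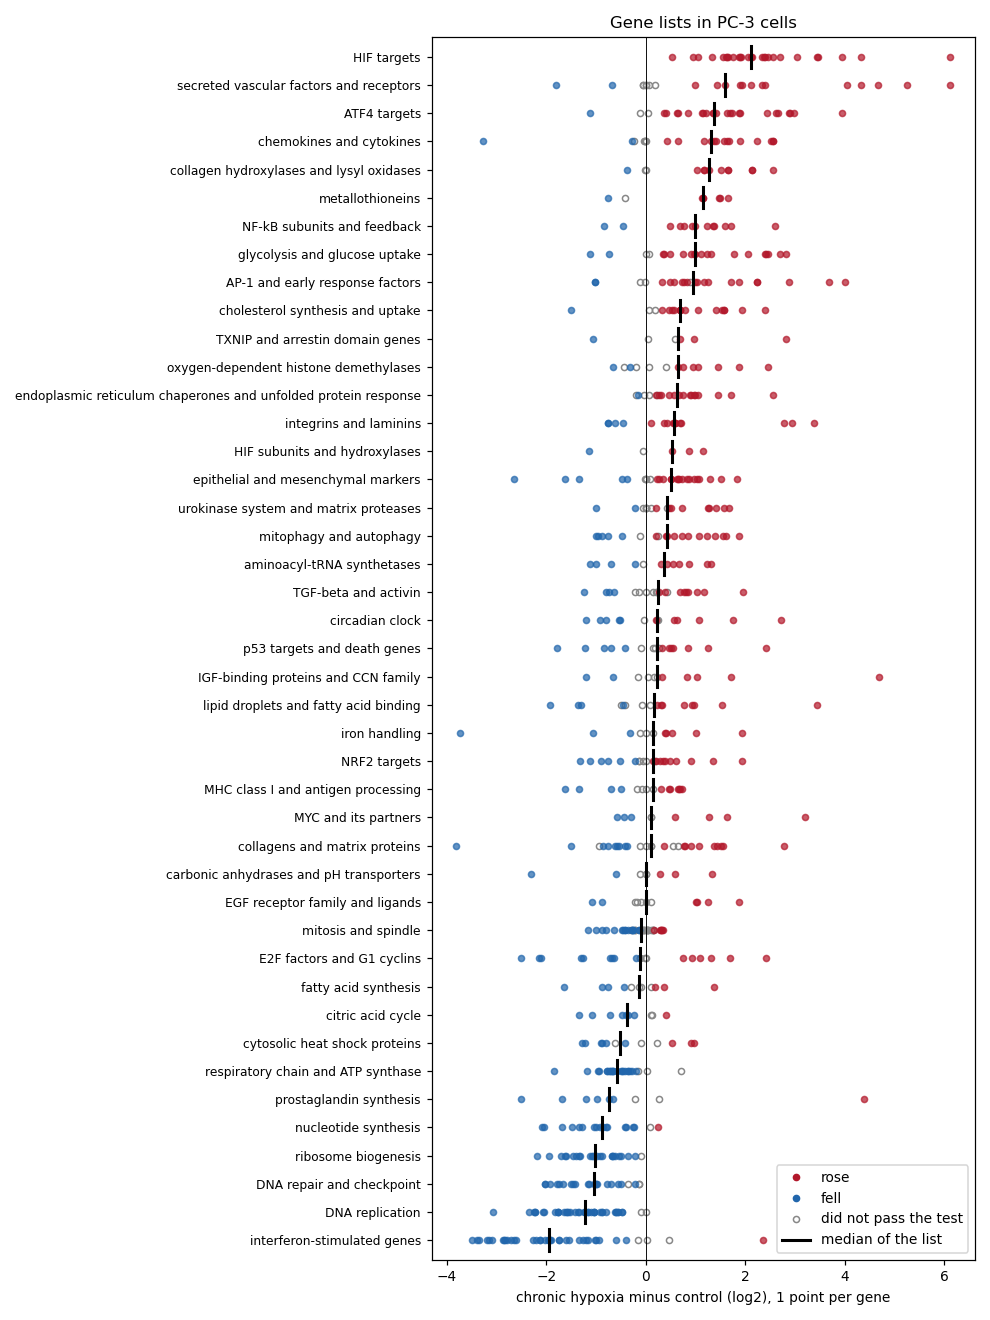
Difference between chronic hypoxia and control (log2, x axis) of each tested gene of 43 lists, ordered by their medians (black bars), with red points for genes that rose, blue for genes that fell and open points for genes that did not pass the test. The medians run from 2.11 for HIF targets to -1.95 for interferon-stimulated genes.

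Cycling hypoxia, with the same length of culture, was set directly against chronic hypoxia to show which levels differed between continuous and intermittent lack of oxygen. Of the 4445 probe sets changed by chronic hypoxia, the mean of the cycling hypoxia arrays lay between the means of the other groups in 4196 (94.4%). These probe sets were chosen for a wide gap between the outer means, which favours this placement. The share over all probe sets was not computed. Cycling hypoxia differed from chronic hypoxia in 7517 probe sets (38.0% of those tested), 965 of them at least 2-fold, with the cycling level higher in 605 and lower in 360. By gene, the cycling level was the higher one in 29.7% of all genes and the lower one in 12.6%. The difference is given below as cycling minus chronic hypoxia, so a negative value is a higher level under chronic hypoxia.

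The receptors CXCR4 and ACKR3 and the secreted ANGPTL4 were among the genes that differed most. CXCR4 read 6.98, 7.12 and 6.77 under chronic hypoxia against 2.58, 3.11 and 2.28 under cycling hypoxia, which was below the dim level like the control cells (-4.30, adjusted p = 4.62e-05). ANGPTL4 differed by -3.83 and ACKR3 by -2.87, and DEPP1 differed by -3.44 on its most different probe set. SLAMF9, PTGS2 and FBN2 were nearly as high under cycling hypoxia, with differences of -0.69 (adjusted p = 0.0688), -0.30 and -0.40 that did not pass the test. Of the HIF targets 25 of 27 were lower under cycling hypoxia and none was higher, and PDK1 differed by -0.11 (adjusted p = 0.490). For the chemokines 1 of 21 was lower and 2 were higher, and CXCL8 differed by -0.24 (adjusted p = 0.127) and IL7 by -0.04 (adjusted p = 0.841). Of the ATF4 targets 13 of 26 and of the cholesterol genes 16 of 18 were lower under cycling hypoxia.

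Among the genes that chronic hypoxia lowered, 33 of 42 replication genes, 20 of 24 ribosome biogenesis genes and 17 of 25 respiratory genes were higher under cycling than under chronic hypoxia. Of the interferon-stimulated genes 14 of 39 were higher and 1 was lower. SP100 read 3.20, 2.93 and 3.85 under chronic hypoxia against 5.69, 5.49 and 5.04 under cycling hypoxia (2.08), and SSTR5-AS1 differed by 2.7. HIF1A was higher under cycling than under chronic hypoxia by 0.96 (adjusted p = 8.33e-05), while EPAS1 differed by -0.12 (adjusted p = 0.119). DIDO1 differed by 2.52 and TRERF1 by 2.23 on single probe sets that fell against control, while the other probe sets of these genes were higher than in control cells. RPLP2, a ribosomal protein gene, differed by -2.79 on 1 probe set with a wide spread (4.72, 4.27 and 6.93 under cycling hypoxia), and it did not differ between chronic hypoxia and control beyond that spread (0.21, adjusted p = 0.827).

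**Figure D4:**
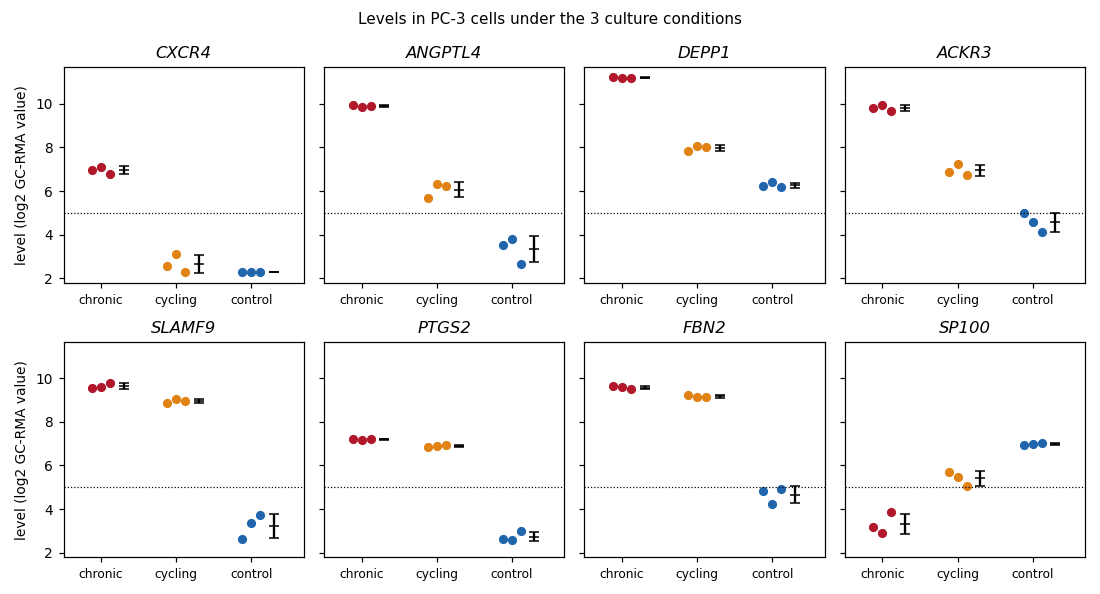
Level (log2 GC-RMA value, y axis) of 8 genes on each PC-3 array under chronic hypoxia, cycling hypoxia and control, with bars for the mean and SD of 3 arrays and a dotted line at the dim level of 5. CXCR4 is above the dim level under chronic hypoxia only, while SLAMF9, PTGS2 and FBN2 are above it under both kinds of hypoxia.

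The response of PC-3 cells was compared with the mean response of SK-OV-3 and WM793B cells by an interaction contrast over 18 arrays. The responses differed in 8773 probe sets (44.3% of those tested), 3505 of them at least 2-fold, with 1460 above and 2045 below the mean of the other lines. By gene, 17.9% lay above and 28.9% below it. Of the interferon-stimulated genes 36 of 39 lay below the other lines, and of the ATF4 targets 23 of 26 lay above them. The interferon-stimulated genes had a median of -1.95 in PC-3 cells, 1.58 in SK-OV-3 cells (35 rose) and -0.40 in WM793B cells (19 fell). The ATF4 targets had a median of 1.38 in PC-3 cells, -1.15 in SK-OV-3 cells (18 fell) and 0.55 in WM793B cells. Cholesterol genes lay above in 15 of 18 cases, with medians of 0.68, -0.13 and -0.40 in PC-3, SK-OV-3 and WM793B cells.

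HIF targets rose in all 3 lines. PC-3 cells raised all 27 with a median of 2.11, SK-OV-3 cells 27 with a median of 1.87 and WM793B cells 24 with a median of 2.20. Glycolysis genes rose less in PC-3 cells, where 14 of 21 lay below the mean of the other lines. Replication genes fell in PC-3 cells with a median of -1.23 and in WM793B cells with -1.62, against 0.03 in SK-OV-3 cells. Mitosis genes rose in SK-OV-3 cells (35 of 39), and 6 of them lay below the mean of the other lines in PC-3 cells.

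The probe sets of CDCP1, SCNN1G and TCP11L2 had means of 2.28 to 2.52 under both conditions in SK-OV-3 and WM793B cells, which is below the dim level. Their PC-3 responses exceeded the mean of the other lines by 6.24, 5.87 and 5.39 (log2). Among the largest falls, SSTR5-AS1, GUCY1A1, PHACTR3, NDP and SLC40A1 had means of 2.28 to 2.79 under both conditions in these lines, where a fall could hardly be measured. ADRB1, the beta-1 adrenergic receptor gene, read 7.52, 7.53 and 7.40 under chronic hypoxia against 3.78, 3.54 and 3.39 in control PC-3 cells (at least 5.59-fold) and exceeded the other lines by 4.39. SPARC fell by 3.81 in PC-3 cells and differed by 2.24 in SK-OV-3 cells, and IFIT1 fell by 3.50 in PC-3 cells against differences of 2.69 (SK-OV-3) and -0.40 (WM793B). CXCR4 rose by 4.68 in PC-3 cells and by 8.04 in SK-OV-3 cells, a pair whose difference was not tested by itself. ANGPTL4 rose by 6.55 in PC-3 cells, by 5.41 in SK-OV-3 cells and by 3.51 in WM793B cells.

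**Figure D5:**
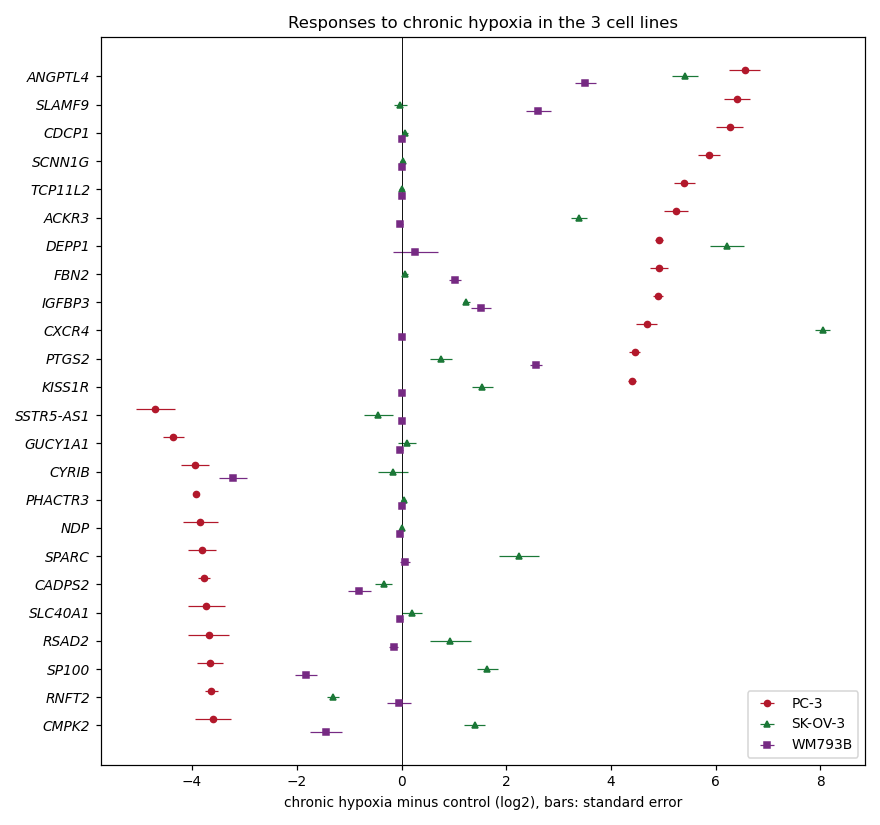
Difference between chronic hypoxia and control (log2, x axis, bars for the standard error) in PC-3, SK-OV-3 and WM793B cells for the 12 genes with the largest rises and the 12 with the largest falls in PC-3 cells. CDCP1, SCNN1G and TCP11L2 are near 0 in the other lines, and SPARC, CXCR4 and DEPP1 are further right in SK-OV-3 cells than in PC-3 cells.

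The variation filter asks for a deviation in at least 20% of the 27 arrays, and 3 arrays of chronic hypoxia cannot meet it alone. Without it 54613 probe sets were tested and 4787 changed at least 2-fold, 2022 higher and 2765 lower. Of the probe sets that the filter removes, 424 changed (149 higher and 275 lower), from 322 named genes, 153 of them without any filtered probe set, and 140 of the 424 were at or below the dim level on all 6 arrays. CBLB, a ubiquitin ligase gene of receptor turnover, read 5.51, 5.77 and 5.4 under chronic hypoxia against 2.28, 2.33 and 2.28 in control cells, at least 1.47-fold higher. RAPH1, an actin regulator gene, read 10.44, 10.41 and 10.21 against 8.62, 8.62 and 8.73 (1.69), well above the dim level in both groups. The collagen gene COL2A1 read 2.48, 2.28 and 2.28 against 6.39, 6.42 and 6.05, at least 2.44-fold lower, and the keratin gene KRT20 and the channel gene KCNT2 were at least 1.73-fold and 1.34-fold lower. UMPS, an enzyme of pyrimidine synthesis outside the filtered set, had a mean of 5.87 against 7.41 (-1.54, adjusted p = 0.000214).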

How the data were processed

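RNA of 27 cultures was hybridised to Affymetrix whole-genome arrays with 54675 probe sets. The deposited values are log2 expression values per probe set that the authors made with GC-RMA. This method models background from probe base composition and normalizes all arrays together, and no version is given in the submitters' notes. The number of arrays limits their precision. Every column of the table belonged to a sample of the series. The 62 control probe sets were left out, and 19791 of 54613 probe sets passed the filter for variation that the study describes, in which 20% or more of the 27 arrays deviate from the probe set's median by 1.5-fold or more. Of these, 17314 carried 1 gene symbol, 811 several and 1666 none in the annotation used here.

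Groups came from the array titles. limma 3.58.1 (R 4.3.3) was fitted to the 9 PC-3 arrays with 1 mean per group, and p values were adjusted by the Benjamini-Hochberg method over all filtered probe sets; the cell lines were compared on 18 arrays. The study used a related variance-shrinking test. A probe set counted as changed at an adjusted p under 0.05 and 2-fold; a listed gene was read by its brightest filtered probe set and called at that p. A dim level of 5 on the log2 scale was chosen here; the study's own noise estimate of 5 stands beside linear values and would be 2.32 in log2. Where all arrays of a group lay at or below the dim level, the fold is a lower bound: the mean of the brighter group over the dim level. The limma fit was also run on simulated data in R, and the outcome is not given here. Values and counts were prepared with Python 3.11.15.

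Genes were named by rule: the 12 largest rises and falls with 1 symbol and no overlap, the 4 list members with the largest differences and others by their role, the qRT-PCR genes, the 5 largest differences each way from cycling hypoxia and from the other cell lines, and the 5 each way among removed probe sets. The members and lists were chosen with earlier results of these data known. The alternatives were other filters, thresholds, scales, tests, probe set choices, a replicate block and leaving out each array.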

Additional observations from a re-analysis of the deposited data

Results flagged for a closer look

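For 27 named genes the response of PC-3 cells to chronic hypoxia differed from the mean response of SK-OV-3 and WM793B cells by limma's interaction test (adjusted p under 0.05). Groups of 3 arrays were not searched for single outlying samples. All values are the PC-3 response less the mean of the other lines (log2), and their causes were not tested.

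The PC-3 response lay above the mean response of the other lines for genes that rose in PC-3 cells. The difference was 6.24 for CDCP1, 5.87 for SCNN1G, 5.39 for TCP11L2 and 5.12 for SLAMF9. It was 4.39 for the adrenergic receptor gene ADRB1, 4.36 for FBN2 and 3.63 for KISS1R. ACKR3 exceeded the other lines by 3.57, IGFBP3 by 3.52 and PTGS2 by 2.78. ANGPTL4, DEPP1 and CXCR4 exceeded the mean by 2.09, 1.68 and 0.66. The CXCR4 mean joins a rise of 8.04 in SK-OV-3 cells and a level at the lowest deposited value in WM793B cells. The DEPP1 mean joins a rise of 6.22 in SK-OV-3 cells and a difference of 0.26 in WM793B cells. Both genes thus rose more in SK-OV-3 cells than in PC-3 cells. Of these genes, all but CDCP1, SCNN1G, TCP11L2 and ADRB1 also passed the test for a rise in at least 1 other line.

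The PC-3 response lay below that of the other lines for genes that fell in PC-3 cells. Interferon-stimulated genes were prominent, with -4.64 for IFIT1, -4.46 for IFI44, -4.07 for RSAD2, -3.58 for CMPK2 and -3.57 for SP100. The matrix gene SPARC differed by -4.97, SSTR5-AS1 by -4.48 and GUCY1A1 by -4.40. PHACTR3 differed by -3.95, the Wnt receptor ligand gene NDP by -3.82 and the iron exporter gene SLC40A1 by -3.82. CADPS2 differed by -3.19, RNFT2 by -2.95 and CYRIB by -2.25. Falls in WM793B cells also passed the test for CYRIB (-3.22), SP100 (-1.83), CMPK2 (-1.44) and CADPS2 (-0.81). In SK-OV-3 cells SP100 and CMPK2 rose, by 1.64 and 1.40, and CYRIB was dim, with means of 2.93 and 3.09. SSTR5-AS1, GUCY1A1, PHACTR3, NDP and SLC40A1 had means of 2.28 to 2.79 (log2) under both conditions in SK-OV-3 and WM793B cells. RSAD2 had means of 2.61 to 3.66, so all of these genes were dim there and a fall could hardly be measured. RNFT2 was dim there too, at 2.80 to 4.64, yet it passed the test for a fall in SK-OV-3 cells (-1.31, SE 0.11).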

How the results depend on the processing

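Rises made up 43.1% of the changed probe sets as deposited and 55.7% with median centring, so the more frequent direction depended on the scale. No named gene that passed the test changed sign under the alternative fits, each read on the same probe set as in the main fit. Other probe sets were not part of this check, and those of FBN2, SP100, HK2, MTHFD1, TRERF1 and DIDO1 went the other way. The 4445 changed probe sets became 8124 (3426 higher and 4698 lower) at 1.5-fold and 11966 (5187 higher and 6779 lower) with no minimum fold, and ranged from 4379 to 4485 with each array left out in turn (1845 to 1970 higher, 2462 to 2601 lower). With the filter replaced by a level above the dim level 3517 were called, with quantile normalization 4348 (2164 higher and 2184 lower) and with median centring 4395 (2447 higher and 1948 lower). Arrays with the same replicate number did not deviate together (correlations of -0.05, -0.02 and -0.04 between chronic hypoxia and control), so the numbers were not taken as pairs, and a replicate block gave 4425. Against cycling hypoxia the leave-one-out counts were 906 to 1021 (554 to 691 higher, 330 to 363 lower), and the replicate block gave 927. Against the other lines they were 3403 to 3563 (1393 to 1504 above, 1966 to 2094 below), and the block gave 3489.

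Of the list counts 468 stayed within 1.5 times and 5 did not. Under median centring 8 mitosis genes fell in place of 16, 5 genes of pH control rose in place of 3 and 5 TXNIP and arrestin domain genes rose in place of 3, also 5 under quantile normalization. With the median of all probe sets of a gene 3 iron genes rose in place of 5. The medians of the mitosis, E2F and fatty acid lists turned positive under median centring (0.05, 0.03 and 0.03), which moved the median of all genes from -0.08 to 0.07. Leaving out 1 array moved no list count beyond 1.5 times. Among named genes EPHA2 lost its call under median centring, and RPLP2 and EIF5 passed only with the F-test. Probe sets at or below the dim level give bounds only. With a linear value of 5 as that level, chosen after seeing the data, 13 rises in place of 683 and 4 falls in place of 938 would be bounds.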
